A study of Homo sapiens with 8 samples.

Results

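Immediate-early and MAPK feedback genes were examined in HuCCT1, an established human intrahepatic cholangiocarcinoma cell line, in control cells and in cells with knockdown of BEX2. The set is 10 genes chosen by name, FOS, FOSL1, JUN, JUNB, EGR1, IER3, DUSP1, DUSP4, DUSP6 and MYC, among 20464 genes measured well enough to be tested. All 10 were on the array, and the probe of each was well above background on all 8 arrays. Total RNA of cells with 4 vectors was measured on 8 single-colour expression arrays, 2 for each vector. The vectors shControl and shNontarget are the controls, and shBEX2-1 and shBEX2-2 carry short hairpin RNAs against BEX2, so every group had taken up a hairpin vector. No treatment, dose or time point is given for any group. The study describes retroviral delivery, one control hairpin, against luciferase, and RPMI medium with fetal bovine serum, and it does not say which of the control vectors that hairpin is. The target sequences given for the BEX2 hairpins are, over nearly all of their length, reverse complements of each other, so that both hairpins point at the same stretch of BEX2. The labels do not state whether arrays sharing a vector hold separate cultures, and p-values then measure only the spread between these samples, which may be technical.

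Immediate-early genes are transcribed within minutes of a growth factor, serum or stress signal, without new protein synthesis. The RAS-RAF-MEK-ERK cascade and its relatives JNK and p38, the mitogen-activated protein kinases (MAPK), carry that signal to factors such as SRF with its partners of the TCF family, and to CREB, which sit on the promoters of these genes. FOS and JUN proteins pair to form AP-1, EGR1 is a zinc finger activator, and MYC drives growth genes. The DUSP phosphatases are induced by the same cascades and remove phosphate from the kinases, which closes a feedback loop.

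Promoter windows are given for genes on which the results below turn. The RefSeq promoter table (GRCh38.p14) held 6 of the 10 genes. It did not list FOSL1, IER3, DUSP4 or MYC. The 250 bases before the start site are shown 5′ to 3′ for FOS (chr14:75278578-75278827, + strand), EGR1 (chr5:138465229-138465478, + strand) and DUSP1 (chr5:172771196-172771445, - strand), the members that differed most between the control vectors, and for JUNB (chr19:12791236-12791485, + strand) and DUSP6 (chr12:89352502-89352751, - strand), which were lower with BEX2 knockdown. Capitals mark CArG boxes, the element bound by SRF, and the CREB element core TGACGT, read as ACGTCA on the other strand.
FOS: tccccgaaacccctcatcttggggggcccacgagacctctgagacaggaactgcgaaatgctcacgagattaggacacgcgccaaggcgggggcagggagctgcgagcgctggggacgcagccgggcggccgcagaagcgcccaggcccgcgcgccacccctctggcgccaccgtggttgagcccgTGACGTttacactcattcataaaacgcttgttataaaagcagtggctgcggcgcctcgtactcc
EGR1: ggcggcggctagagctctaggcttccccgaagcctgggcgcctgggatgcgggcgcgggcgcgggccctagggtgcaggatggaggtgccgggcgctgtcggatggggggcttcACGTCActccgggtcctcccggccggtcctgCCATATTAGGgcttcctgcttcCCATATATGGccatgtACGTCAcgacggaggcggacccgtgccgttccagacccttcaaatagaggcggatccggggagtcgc
DUSP1: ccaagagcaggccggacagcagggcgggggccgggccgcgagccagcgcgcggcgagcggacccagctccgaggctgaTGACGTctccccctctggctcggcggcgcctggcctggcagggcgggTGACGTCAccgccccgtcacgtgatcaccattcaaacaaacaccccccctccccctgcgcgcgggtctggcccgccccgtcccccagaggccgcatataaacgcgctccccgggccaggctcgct
JUNB: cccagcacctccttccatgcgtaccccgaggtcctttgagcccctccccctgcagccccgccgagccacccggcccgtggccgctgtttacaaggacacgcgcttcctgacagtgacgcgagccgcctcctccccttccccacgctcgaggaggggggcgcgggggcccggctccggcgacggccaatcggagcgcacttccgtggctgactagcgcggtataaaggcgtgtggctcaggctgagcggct
DUSP6: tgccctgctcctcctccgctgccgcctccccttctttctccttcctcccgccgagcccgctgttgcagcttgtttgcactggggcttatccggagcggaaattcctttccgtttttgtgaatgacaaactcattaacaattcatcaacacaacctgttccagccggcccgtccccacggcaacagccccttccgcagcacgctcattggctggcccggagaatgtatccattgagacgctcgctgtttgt
EGR1 held 2 CArG boxes, at -105 to -96 and -83 to -74 from the start site, an element found in 1.16% of 35116 promoter windows of the same length, and 2 cores TGACGT. DUSP1 held the full palindrome TGACGTCA at -125 to -118, which 1.65% of windows hold and which contains the core on both strands, and a further core at -172 to -167. FOS held a single core, at -64 to -59, as 7.10% of all windows hold at least 1. JUNB and DUSP6 held neither element in these windows. TATAAA (10.7% of windows) was found in FOS, JUNB and DUSP1, GCGNGGGCG (8.41%) in EGR1 alone, and GGGCGG (42.6%) in FOS, JUN and DUSP1. TGANTCA (6.57%) and CCGGAA (14.5%) were in none of the 6 windows, and both strands were searched throughout. These letter matches are a description of the windows and not evidence of binding. Bases outside the windows were not searched, so an element absent here may lie elsewhere.

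The JUNB probe is shown because JUNB was the only member called between the arms under all 20 alternatives described below. It lies at chr19:12902998-12903057 (hg19, the build of the array design, + strand), from base 688 of the transcript NM_002229.
JUNB probe: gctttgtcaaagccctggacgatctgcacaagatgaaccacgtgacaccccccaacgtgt
Each level below is the log2 processed signal of a gene's probe minus the 75th percentile of the same array, so 0 is the level of that percentile and 1 unit is a doubling. The probes stood as 2 replicate spots on each array, or 10 for DUSP1 and MYC, and the spread between spots of a probe within an array had an SD of at most 0.21 (FOS). Levels of different genes are not compared, because each probe has its own brightness.

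The arrays themselves differed before any comparison of arms. The shNontarget arrays were more than 1 log2 unit apart for 34.9% of genes, against 1.76% for the shControl arrays, 1.57% for shBEX2-1 and 0.562% for shBEX2-2. The 4 control arrays lay in one row of the slide and the 4 knockdown arrays in the other, so that slide position and arm cannot be told apart. BEX2 itself had raw intensities of 71.0 and 55.7 with shControl, 115 and 48.8 with shNontarget, 11.9 and 11.1 with shBEX2-1 and 20.4 and 26.0 with shBEX2-2, and was lower in the knockdown arm by limma (log2 difference -1.63 ± 0.32 SE, adjusted p = 0.0116). Against shNontarget alone it was -1.83 (adjusted p = 0.0787). With normexp background correction the difference was only -0.45 (adjusted p = 0.0796, limma), so its size depended on how the background was treated. All 8 biliary epithelium markers were well above background on all arrays. Their summed level was 9.30 to 9.80 in the control arm and 9.74 to 9.998 in the knockdown arm. Fewer markers of other cells were above background on all arrays, with 0 of 4 for hepatocytes, 2 of 5 for fibroblasts (COL1A1 and LUM), 1 of 4 for leukocytes (CD14) and 2 of 3 for endothelium (CDH5 and VWF), while ALB, TTR, COL1A2 and PECAM1 were above it on none. Their summed levels in the control and the knockdown arm were -3.96 to -3.12 and -4.03 to -3.35 for hepatocytes, -0.029 to 0.24 and -0.86 to 0.73 for fibroblasts, -1.42 to -0.95 and -0.82 to -0.67 for leukocytes, and -2.89 to -2.24 and -2.63 to -2.35 for endothelium. The leukocyte sum was thus higher on every knockdown array. Of all these markers, KRT8 (1.02, adjusted p = 0.0165) and CD14 (0.54, adjusted p = 0.0295, limma) were called between the arms, both higher with knockdown, and the part of such cells or genes in the results was not tested.

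With BEX2 knockdown, JUNB, DUSP6 and MYC fell and FOSL1 and DUSP4 rose. The falls were 2.91-fold for JUNB, 1.80-fold for DUSP6 and 1.46-fold for MYC, and the rises were 1.71-fold for FOSL1 and 1.75-fold for DUSP4 (4 knockdown against 4 control arrays, limma, Benjamini-Hochberg adjusted p under 0.05 over all genes). This fit counts arrays that share a vector as separate. Its errors, intervals and p-values therefore do not allow for differences between the vectors of an arm. FOS, EGR1 and DUSP1 were higher on the shNontarget arrays than on the shControl arrays. For FOS and DUSP1 the direction of the difference between the arms followed the choice of control. EGR1 was lower with knockdown against either control vector, and the size of its difference and its call followed that choice. Of the 10 members, 3 were called lower, where 6.25% of all genes tested were, and 2 were called higher, where 6.68% were. The arms did not overlap for 7 members, against 22.1% of all genes. The median difference of the 10 members was -0.46, beside 0.027 for all genes, with 7 negative and 3 positive. In bulk RNA, a change in part of the cells and a smaller change in all of them cannot be told apart. The plot of levels by vector shows each array.

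**Figure D1:**
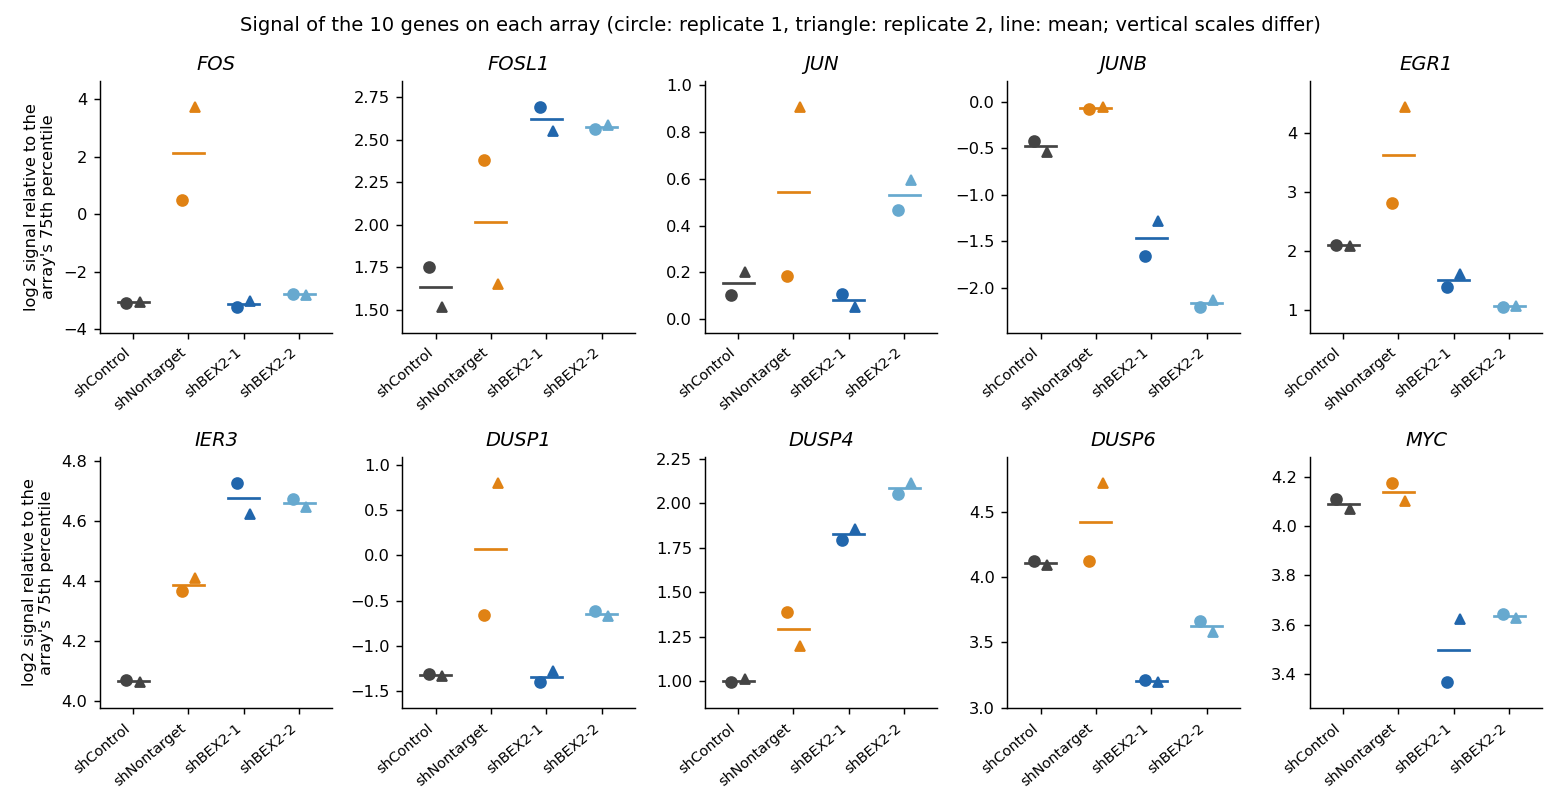
Log2 signal relative to the array's 75th percentile (vertical axes, scales differ) for the 10 genes in the 4 vectors (horizontal axes), with circles for replicate 1, triangles for replicate 2 and lines for the mean of 2 arrays. JUNB, EGR1, DUSP6 and MYC lie lower and FOSL1, IER3 and DUSP4 higher on all 4 knockdown arrays than on any control array, while FOS stands at 0.51 and 3.73 on the shNontarget arrays and between -3.21 and -2.77 on all others.

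JUNB, an AP-1 subunit that often restrains JUN, was at -0.42 and -0.54 on the shControl arrays, -0.08 and -0.06 on the shNontarget arrays, -1.66 and -1.28 on the shBEX2-1 arrays and -2.20 and -2.13 on the shBEX2-2 arrays. The arms were clear of each other, and the shBEX2-2 arrays were the lowest. The log2 difference was -1.54 ± 0.23 (SE), with a 95% confidence interval of -2.05 to -1.03 and a limma adjusted p of 0.00364. It was -1.34 against shControl alone (adjusted p = 0.00657) and -1.75 against shNontarget alone (adjusted p = 0.0428, limma). JUNB passed the threshold under all 20 alternatives run for this comparison, the only member to do so, with adjusted p-values from 0.00184 to 0.0428.

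FOSL1 encodes FRA1, a FOS relative that accumulates when ERK activity is sustained (probe at chr11:65660098-65660157, hg19, - strand). Its levels were 1.75 and 1.52 with shControl, 2.38 and 1.65 with shNontarget, 2.69 and 2.55 with shBEX2-1 and 2.57 and 2.59 with shBEX2-2. The knockdown arrays were all above the control arrays, although shNontarget 1 came within 0.17 of them. The difference was 0.77 ± 0.18 (SE, 95% interval 0.36 to 1.19, limma adjusted p = 0.0261). It was 0.96 against shControl alone (adjusted p = 0.000451) and 0.58 against shNontarget alone (adjusted p = 0.236, limma). The call was lost without shControl 1, without shControl 2 or without any 1 of the 4 knockdown arrays, with limma adjusted p-values of 0.0634 to 0.0810 and differences of 0.67 to 0.79.

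JUN, the main partner of FOS in AP-1 (probe at chr1:59246511-59246570, hg19, - strand), was at 0.10 and 0.20 with shControl, 0.18 and 0.91 with shNontarget, 0.11 and 0.05 with shBEX2-1 and 0.47 and 0.59 with shBEX2-2. The arms overlapped, and shNontarget 2 was the highest array. The difference was -0.04 ± 0.21 (SE), with a 95% interval of -0.52 to 0.43 (limma adjusted p = 0.923), so a change of up to about that size in either direction is within the data. MAPK8 and MAPK9, the JNK kinases that phosphorylate JUN, differed by 0.29 (adjusted p = 0.4995) and 0.52 (adjusted p = 0.0291, limma), and the MAPK9 call was kept in 12 of 20 alternatives, with adjusted p-values from 0.0186 to 0.104.

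FOS (probe at chr14:75748214-75748273, hg19, + strand) was at -3.08 and -3.04 with shControl, 0.51 and 3.73 with shNontarget, -3.21 and -3.00 with shBEX2-1 and -2.77 and -2.79 with shBEX2-2. As raw intensity this was 86.5 and 103 with shControl, 1065 and 8871 with shNontarget, 47.8 and 64.5 with shBEX2-1 and 90.5 and 91.4 with shBEX2-2. Thus 6 of the 8 arrays were close together, and the shNontarget arrays were apart from them and from each other. The knockdown minus control difference was -2.47 ± 1.33 (SE, 95% interval -5.48 to 0.53, limma adjusted p = 0.269). Against shControl alone it turned to 0.11 (adjusted p = 0.623), and against shNontarget alone it was -5.06 (adjusted p = 0.0396, limma). The difference between the arms in FOS therefore lay in the shNontarget arrays, and its direction depended on them.

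EGR1 (probe at chr5:137804891-137804950, hg19, + strand) was at 2.10 and 2.08 with shControl, 2.82 and 4.44 with shNontarget, 1.39 and 1.61 with shBEX2-1 and 1.05 and 1.06 with shBEX2-2. All knockdown arrays were below all control arrays, and the shBEX2-2 arrays were lowest. The log2 difference of -1.58 ± 0.47 (SE, 95% interval -2.65 to -0.52) missed the threshold (limma adjusted p = 0.0590), with a wide spread in the control arm (SD 1.11, n = 4) beside the knockdown arm (SD 0.27, n = 4). Against shControl alone, whose arrays differed by 0.02, the difference was smaller, -0.81, and passed (adjusted p = 0.00840, limma). Against shNontarget alone it was -2.35 (adjusted p = 0.0536). It was -1.05 without shNontarget 2 (adjusted p = 0.0137) and -1.60 without shNontarget 1 (adjusted p = 0.0574, limma), and EGR1 passed in 5 of 20 alternatives.

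IER3, a stress and growth factor response gene whose product prolongs ERK signalling (probe at chr6:30711312-30711371, hg19, - strand), was at 4.07 and 4.06 with shControl, 4.37 and 4.41 with shNontarget, 4.73 and 4.62 with shBEX2-1 and 4.67 and 4.65 with shBEX2-2. The order of the vectors was shControl, shNontarget and then both knockdown vectors, which lay within 0.015 of each other on average. The difference between the arms was 0.44 ± 0.13 (SE, 95% interval 0.14 to 0.74) and missed the threshold (limma adjusted p = 0.0601). It passed against shControl alone (0.60, adjusted p = 0.00125), without shNontarget 1 (0.49, adjusted p = 0.0253) and without shNontarget 2 (0.50, adjusted p = 0.0170, limma). Against shNontarget alone it was 0.28 (adjusted p = 0.424, limma), and IER3 passed in 6 of 20 alternatives. A further probe of IER3 gave 0.31.

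The DUSP genes moved apart from each other. DUSP6, a cytoplasmic phosphatase selective for ERK and a common readout of ERK activity (probe at chr12:89742144-89742203, hg19, - strand), was at 4.12 and 4.09 with shControl, 4.12 and 4.72 with shNontarget, 3.21 and 3.19 with shBEX2-1 and 3.67 and 3.58 with shBEX2-2. Every knockdown array was below every control array, shBEX2-1 more so. The difference was -0.85 ± 0.19 (SE, 95% interval -1.28 to -0.42, limma adjusted p = 0.0197), -0.69 against shControl alone (adjusted p = 0.0115) and -1.01 against shNontarget alone (adjusted p = 0.0952). The call was lost without shBEX2-1 1 (-0.78, adjusted p = 0.0653) and without shBEX2-1 2 (-0.78, adjusted p = 0.0632).

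DUSP4, a nuclear phosphatase of ERK and JNK, was at 0.99 and 1.01 with shControl, 1.39 and 1.20 with shNontarget, 1.79 and 1.86 with shBEX2-1 and 2.05 and 2.12 with shBEX2-2. The knockdown arrays were all higher, and the lowest of them was 0.40 above the highest control array. The difference was 0.81 ± 0.14 (SE, 95% interval 0.50 to 1.12, limma adjusted p = 0.00683), and of 20 alternatives it missed the threshold only against shNontarget alone (0.66, adjusted p = 0.105). DUSP1, a nuclear phosphatase of p38 and JNK, was at -1.31 and -1.34 with shControl, -0.66 and 0.81 with shNontarget, -1.40 and -1.28 with shBEX2-1 and -0.62 and -0.68 with shBEX2-2. The arms overlapped, since shBEX2-1 stood level with shControl and shBEX2-2 with shNontarget 1. DUSP1 had a difference of -0.37 ± 0.45 (SE, 95% interval -1.39 to 0.65, limma adjusted p = 0.648), which became 0.33 against shControl alone (adjusted p = 0.330) and 0.11 without shNontarget 2 (adjusted p = 0.791).

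MYC was at 4.11 and 4.07 with shControl, 4.18 and 4.10 with shNontarget, 3.37 and 3.62 with shBEX2-1 and 3.64 and 3.63 with shBEX2-2. The 4 control arrays lay within 0.11 of each other, and all knockdown arrays were below them. The difference was -0.55 ± 0.12 (SE, 95% interval -0.82 to -0.28, limma adjusted p = 0.0171). It was -0.52 against shControl alone (adjusted p = 0.00697) and -0.57 against shNontarget alone (adjusted p = 0.144, limma), so its size hardly moved with the control. The call was lost without shControl 1, shControl 2, shBEX2-1 1, shBEX2-2 1 or shBEX2-2 2, with limma adjusted p-values of 0.0522 to 0.0612 and differences of -0.58 to -0.48.

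For single genes, an exact two-sided permutation test of 4 against 4 arrays gave p = 0.0286, the smallest that 70 relabellings allow, for FOSL1, JUNB, EGR1, IER3, DUSP4, DUSP6 and MYC. It gave exact p-values of 0.343 for FOS, 0.800 for JUN and 0.629 for DUSP1. The relabellings treat all arrays as exchangeable, although arrays share vectors, so these p-values do not allow for differences between vectors. Relabelling whole vectors would allow fewer splits and was not done. The smallest p is reached only where the arms do not overlap, which held for 22.1% of all genes. For the genes listed, it therefore restates that their arms did not overlap.

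**Figure D2:**
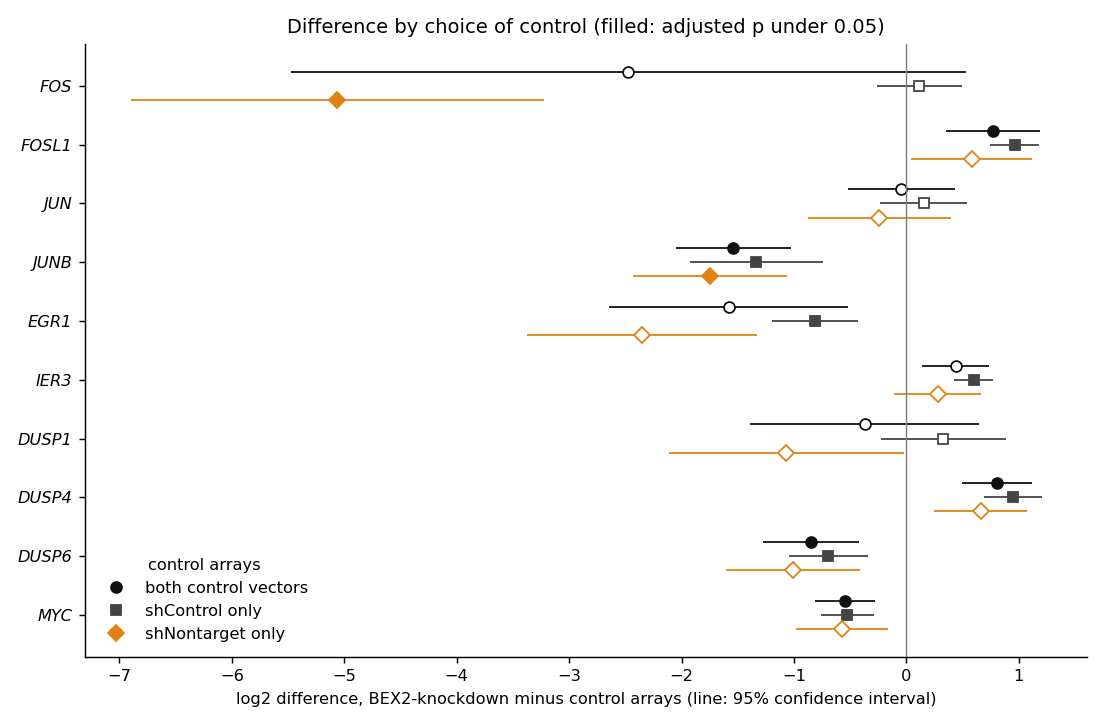
Log2 difference of the knockdown from the control arrays (horizontal axis, lines are 95% confidence intervals) for the 10 genes, with both control vectors (circles), shControl alone (squares) or shNontarget alone (diamonds) as control and filled symbols where the limma adjusted p was under 0.05. FOS moves from -5.06 to 0.11 with the control chosen, and JUNB is filled under all 3 choices.

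With each hairpin set against both controls, 4 members passed with shBEX2-1 (6.97% of all genes) and 3 with shBEX2-2 (9.66% of all genes). These comparisons share the control arrays. JUNB passed with both, at -1.19 ± 0.15 (SE, limma adjusted p = 0.0112) for shBEX2-1 and -1.89 ± 0.15 (adjusted p = 0.00316) for shBEX2-2, as did DUSP4, at 0.68 ± 0.12 (adjusted p = 0.0261) and 0.94 ± 0.12 (adjusted p = 0.00769). DUSP6 passed with shBEX2-1 (-1.06, adjusted p = 0.0284) and had -0.64 with shBEX2-2 (adjusted p = 0.0962, limma). MYC passed with shBEX2-1 at -0.62 (adjusted p = 0.0481, or 0.0752 with the replicate number as a block) and had -0.48 with shBEX2-2 (adjusted p = 0.0828). EGR1 passed with shBEX2-2 at -1.80 (adjusted p = 0.0471, or 0.0540 with the replicate block) and had -1.36 with shBEX2-1 (adjusted p = 0.116). Against shControl alone, 7 members were called for shBEX2-1 (43.6% of all genes) and 9 for shBEX2-2 (44.1% of all genes). Against shNontarget alone, limma called 0 for shBEX2-1 (0% of all genes, 7 members at an unadjusted p under 0.05) and 1, JUNB, for shBEX2-2 (0.313% of all genes). The differences themselves were not smaller against shNontarget alone for the members that fell with shBEX2-1, with JUNB at -1.40 (adjusted p = 0.103) against -0.99, DUSP6 at -1.22 against -0.90 and MYC at -0.64 against -0.59 with shControl alone. DUSP4 had 0.53 against shNontarget alone and 0.82 against shControl alone.

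Whether the hairpins differed from each other was tested directly. No member passed, nor did more than 2 genes of all tested (0.00977% of genes, 1492 at an unadjusted p under 0.05). JUNB came closest, 0.70 ± 0.17 (SE) higher with shBEX2-1 (95% interval 0.28 to 1.11, limma adjusted p = 0.307), and was the single member with an unadjusted p under 0.05 (0.00641, limma). The largest of the other differences were those of DUSP1, -0.70 with an interval of -1.76 to 0.36, and JUN, -0.45 with an interval of -1.04 to 0.14, both higher with shBEX2-2. The shared spread of this model holds the gap between the shNontarget arrays. When either of them was left out, that gap left the model and JUN, JUNB, EGR1, DUSP1, DUSP4 and DUSP6 passed, 6 members in each case where 14.4% and 14.7% of all genes passed, with JUNB at a limma adjusted p of 0.0154 without shNontarget 1 and 0.0148 without shNontarget 2. Among these 6, JUNB and EGR1 were higher with shBEX2-1 and the other 4 higher with shBEX2-2.

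Between the control vectors, all 10 members were higher on average with shNontarget than with shControl, and none passed the threshold. The median was 0.39, beside -0.011 for all genes. MYC at 0.05 was among them, and its sign turned with quantile normalization (-0.03). No gene passed the adjusted threshold in this contrast by limma (0% of genes, 1567 at an unadjusted p under 0.05), and 3 members had an unadjusted p under 0.05, FOS (5.18 ± 0.92 SE, 95% interval 2.94 to 7.42), EGR1 (1.54 ± 0.48) and DUSP1 (1.39 ± 0.44). Over the 4 vectors together, a limma F test called FOS (adjusted p = 0.0461), JUNB (0.00854) and DUSP4 (0.0208), 3 members where 6.76% of genes were called. With the replicate number as a block, FOS (0.0661) and DUSP4 (0.0507) missed the threshold in that test.

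The height of FOS on the shNontarget arrays was extreme among all genes. On shNontarget 2 it was 6.79 above the shControl mean, first of 20464 genes, and on shNontarget 1 it was 3.57 above, rank 14. EGR1 was 2.35 above on shNontarget 2, rank 75, and DUSP1 2.13 above, rank 101. These 3 of 10 members exceeded the shControl mean by more than 1 on shNontarget 2, as did 7.53% of all genes. The other members were between 0.01 (MYC) and 0.76 (JUN) above it on that array. Without shNontarget 1, limma called 6 members between the control vectors (FOS, JUN, EGR1, IER3, DUSP1 and DUSP6), and without shNontarget 2 also 6 (FOS, FOSL1, EGR1, IER3, DUSP1 and DUSP4), where 45.1% and 46.2% of all genes were called and the lone shNontarget array is assumed to vary as the other vectors do. Of the 6 promoter windows, those of FOS, EGR1 and DUSP1 hold the core TGACGT, which is a description and was not tested.

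**Figure D3:**
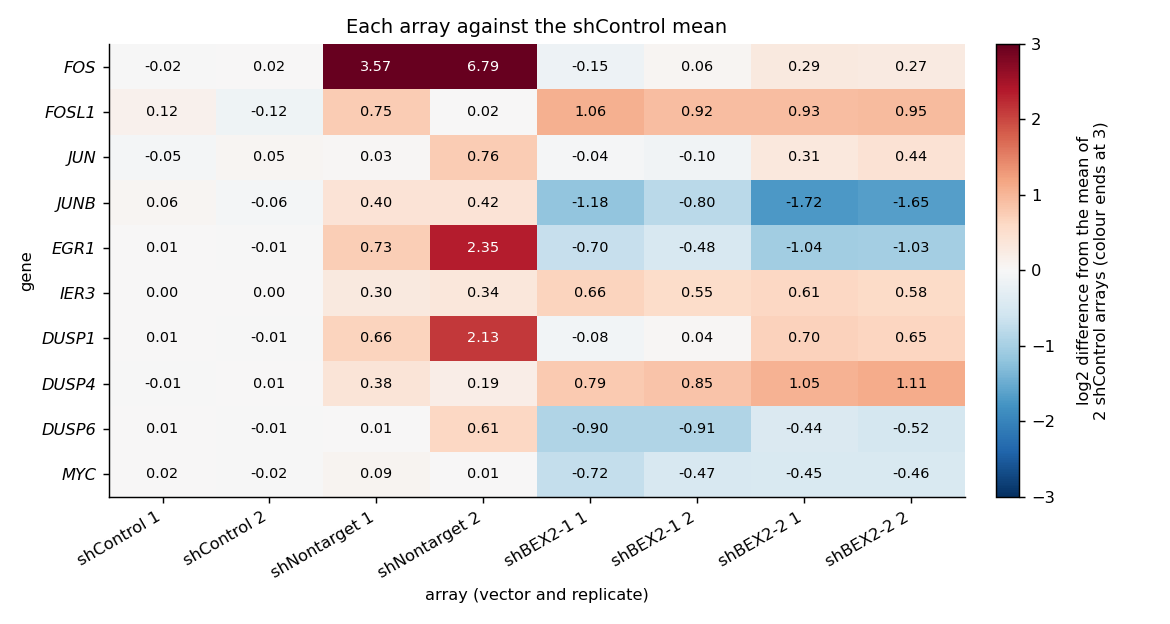
Log2 difference of each array (columns) from the mean of 2 shControl arrays for the 10 genes (rows), printed in each cell, with red for higher, blue for lower and the colour scale ending at 3. FOS, EGR1 and DUSP1 reach 6.79, 2.35 and 2.13 on shNontarget 2, and JUNB is between -1.72 and -0.80 on the 4 knockdown arrays.

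Members could be grouped by how they ran across the 8 arrays, given here as a description without a test, over arrays that share vectors. JUNB and EGR1 put the arrays in the same order (Spearman rho = 1, Pearson r = 0.84), from shNontarget through shControl and shBEX2-1 to shBEX2-2. DUSP6 and MYC ran together (r = 0.88), and FOSL1, DUSP4 and IER3 ran together (r of 0.88 to 0.92) and against JUNB (r of -0.89 to -0.74). FOS ran with DUSP1 (r = 0.90, rho = 0.95) and with EGR1 by r (0.92) but not by rank (rho = 0.31). Of all genes tested, those most like FOS were BAIAP2L2 (r = 0.993), CRYZL1 (r = 0.987) and an unnamed intergenic RNA (r = 0.986). BAIAP2L2 was 1.28 and 1.72 on the shNontarget arrays and between 0.75 and 0.85 on the others. Most like DUSP6 were DOCK9 (r = 0.992), LOC646762 (r = 0.986) and LRRC56 (r = 0.984), and most like MYC were BRPF3 (r = 0.999), BCAR3 (r = 0.996) and GPR108 (r = 0.995).

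The related genes of the pathway gave the following counts, in lists of genes on the array that could be tested. Among 21 other ERK feedback and output genes, 5 fell and none rose by limma (at an unadjusted p under 0.05, 12 were lower and none was higher, and the methods' t-test called 3 lower and none higher after adjustment), with a median of -0.55. ETV1 and ETV4, ETS factors induced by ERK, fell by 1.14 and 0.82 on the log2 scale (adjusted p = 0.00235 and 0.0301, limma). HBEGF and LIF, secreted ligands, fell by 0.82 and 1.04 (adjusted p = 0.0128 and 0.0462). ETV1 passed in all 20 alternatives, HBEGF in 19, ETV4 in 13 and LIF in 8. Against both control vectors, the 5 called lower were 23.8% of the list, where 6.25% of all genes were called lower. Against shControl alone 10 of the 21 were called lower, where 16.3% of all genes were.

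Among 12 SRF, ETS and CREB family factors and coactivators, some of which bind the elements shown above, 5 fell and none rose (1 was higher at an unadjusted p under 0.05, and the methods' t-test called 5 lower and none higher), with a median of -0.38. SRF itself fell by 0.95 (adjusted p = 0.0129), ETS2 by 0.84 (0.0110), MRTFA, the actin-regulated SRF coactivator, by 0.67 (0.0251) and ATF1 by 0.63 (0.0277, limma). SRF and ETS2 passed in 19 of 20 alternatives, MRTFA in 14 and ATF1 in 12. SRF stood at -2.52 and -2.57 with shControl, -2.19 and -2.33 with shNontarget, -3.73 and -3.41 with shBEX2-1 and -3.18 and -3.06 with shBEX2-2. Thus all knockdown arrays were below all control arrays in SRF. The 5 genes called lower were 41.7% of this list, where 6.25% of all genes were called lower.

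Among 29 other immediate-early genes the changes were mixed, with 1 called higher and 2 lower and a median of -0.18. These were 3.45% and 6.90% of the list, beside 6.68% and 6.25% of all genes. FOSL2, which encodes the AP-1 subunit FRA2, rose by 1.51 (adjusted p = 0.00294) and passed in 19 of 20 alternatives. CCN2, a secreted matrix protein, fell by 1.79 (adjusted p = 0.0412, or 0.0509 with the replicate block) and MCL1, an apoptosis inhibitor, fell by 0.52 (adjusted p = 0.0414, limma), in 11 and 10 of 20 alternatives. CCN2 was also among 6 of the 29 genes of this list more than 1 above the shControl mean on shNontarget 2, where 7.53% of all genes were. These were FOSB (5.91), CCN2 (2.34), KLF4 (1.51), ZFP36 (1.44), KLF2 (1.25) and IER2 (1.04), of which all but CCN2 are named after their values were seen. FOSB, the closest relative of FOS here, was well above background on 6 of 8 arrays and differed between the arms by -2.20 (limma adjusted p = 0.254). Against shControl alone this list had 6 higher and 11 lower, where 17.2% and 16.3% of all genes were.

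In the MYC network, 14 genes tested, 2 rose and 4 fell, with a median of -0.25. These were 14.3% and 28.6% of the list, beside 6.68% and 6.25% of all genes. MXD4, which competes with MYC for the partner MAX, fell by 1.31 (adjusted p = 0.00156), and MLXIP, a glucose-responsive relative, by 0.76 (adjusted p = 0.0135). MXD3, of the same family as MXD4, rose by 1.17 (adjusted p = 0.00424), and MYCBP, a MYC binding protein, by 1.28 (adjusted p = 0.0188, limma). Both directions thus occurred within the MXD family. MXD4 passed in all 20 alternatives, MXD3 in 19, MLXIP in 16 and MYCBP in 14. With the mean of its probes, MLXIP had only -0.32 (limma adjusted p = 0.163).

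The cascades upstream showed no common direction. Of 25 RAS-MAPK cascade genes, 2 rose and 3 fell (median 0.10). These were 8% and 12% of the list, beside 6.68% and 6.25% of all genes. RPS6KA2, an ERK-activated kinase, fell by 1.05 (adjusted p = 0.00149), its relative RPS6KA3 fell by 0.62 (0.0169) and RPS6KA1 rose by 0.62 (0.00710, limma). RPS6KA2 passed in all 20 alternatives, RPS6KA1 in 19 and RPS6KA3 in 13. With the mean of its probes, RPS6KA3 had -0.36 (limma adjusted p = 0.102). Of 19 JNK and p38 cascade genes, 2 rose and 2 fell (median -0.094). Each count was 10.5% of the list, beside 6.68% higher and 6.25% lower among all genes. MAP2K3, an activator of p38, rose by 0.82 (adjusted p = 0.00446), MAPK9 rose as given above, MAP3K5 fell by 0.59 (0.00898) and DUSP22 fell by 0.45 (0.0272, limma). MAP2K3 and MAP3K5 each passed in 19 of 20 alternatives and DUSP22 in 11. With the mean of its probes, DUSP22 had -0.29 (limma adjusted p = 0.277).

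Of 10 heat shock and handling genes, none was called by limma (2 higher and none lower at an unadjusted p under 0.05, and none by the methods' t-test), with a median of 0.13. The largest difference was that of HSP90AA1, 0.69 (limma adjusted p = 0.0575). With shBEX2-2 alone, HSPA1A (0.63, adjusted p = 0.0389) and HSPA1B (0.74, adjusted p = 0.0131, limma), near-identical copies whose probes may share signal, were called higher, and against shControl alone 1 of the 10 was called higher, where 17.2% of all genes were. On shNontarget 2, where FOS, EGR1 and DUSP1 were highest, the median of this list was -0.43 from the shControl mean. For all genes that median was 0.056. None of the list's 10 genes was more than 1 above the shControl mean. Among all genes 7.53% were, so none of 10 is near that share. What part such signals had in the levels of the immediate-early genes was not tested.

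**Figure D4:**
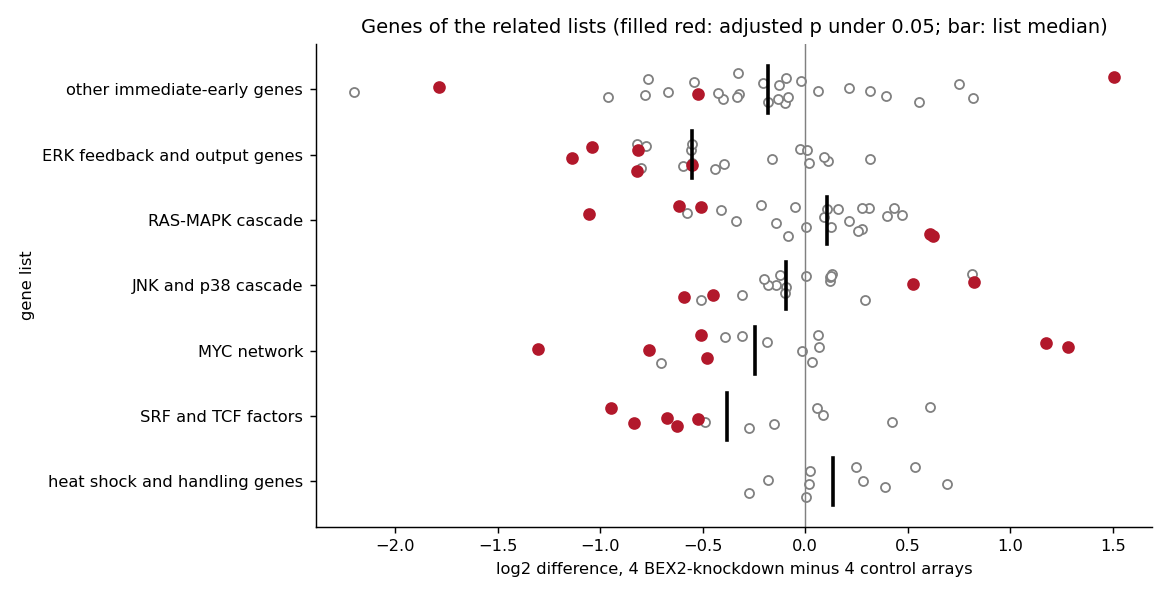
Log2 difference of 4 knockdown from 4 control arrays (horizontal axis) for each tested gene of 7 lists (vertical axis), with red points for a limma adjusted p under 0.05, open grey points for the rest and black bars for list medians. The ERK feedback list has its median at -0.55 and the SRF and TCF list at -0.38, each with 5 red points, all lower.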

How the data were processed

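RNA of HuCCT1 cells with 4 vectors was labelled with Cy3 and hybridized to 8 Agilent arrays on 1 slide. Per the labels, the authors read them with Agilent Feature Extraction 10.7.3.1. The deposited processed intensity had its background subtracted and its spatial trend removed by that software, with no scaling between arrays, and the deposited table of the series holds the same intensity within 0.497%.

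Control spots and non-uniformity outliers (3 to 15 spots per array) were left out. The log2 of each processed signal was expressed relative to the 75th percentile of its array (441 to 838 in intensity). Replicate spots were averaged, a probe had to be well above background on 4 or more of 8 arrays, and a gene was represented by its brightest probe. Gene names are those of the array design. Between 59.8% and 64.6% of spots were well above background, and none was saturated. Precision is limited by how many arrays there are.

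Arms and vectors were compared with lmFit and eBayes (trend) of limma 3.58.1 in R 4.3.3, with Benjamini-Hochberg adjustment over 20464 genes and a threshold of 0.05. The hairpins, the control vectors and the F test came from a model with a mean for each vector and a shared spread. The rank product that the methods name for arrays permutes values across genes and was not used. Random block fits used statmod 1.5.0. Tables were made with pandas 2.3.3 and numpy 2.4.6 under Python 3.11.15, and plots with matplotlib 3.10.9. The fits were tested on simulated data with the same spread of a gene on all arrays and no difference between vectors of an arm. That test does not cover the wide gap between the shNontarget arrays.

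The members, the 7 related lists, the 5 marker lists and the tests were chosen with earlier results of these data known. Named beside the members are BEX2, MAPK8, MAPK9, up to 4 called genes by size from each related list (or the 1 with the largest change where none was called) and the 3 genes most like each of FOS, DUSP6 and MYC. A gene that this rule names is not reported here. The replicate numbers were taken as a possible pairing of arrays across vectors, because file names assign each number its own day, of unstated meaning. The main fits used no pairing, and the replicate number entered only as a block among the alternatives. The differences between replicates, correlated across genes for each pair of vectors, had r of 0.259, 0.126, 0.113, -0.0629, 0.207 and 0.228.

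Alternatives were quantile normalization, normexp with an offset of 50, the deposited table, 2 other filters, the mean of probes, the replicate block, the 4-vector model, the vector as a random block, either control vector alone, each array left out, and the methods' t-test. List counts with shControl alone were added after seeing the data.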

Additional observations from a re-analysis of the deposited data

Results flagged for a closer look

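In the members and named genes of the lists, 68 groups of 4 arrays were examined for an array far from the others, and 8 were found. The cut is set for about 1 of 20 groups by chance, given 4 independent arrays of a single population. That rate does not apply here, because each group holds 2 vectors and the genes share the same arrays. On shNontarget 2, DUSP6 was at 4.72 against 4.09 to 4.12 on the other control arrays (gap 0.955 of the range), JUN at 0.91 against 0.10 to 0.20 (0.879) and MCL1 at 2.12 against 1.62 to 1.69 (0.85). On the same array, RPS6KA1 was at -0.49 against -0.68 to -0.67 (0.905) and RPS6KA2 at 1.37 against 1.60 to 1.63 (0.859). Among the knockdown arrays, MYC was at 3.37 on shBEX2-1 1 against 3.62 to 3.64 (0.93). On shBEX2-1 2, CCN2 was at -2.19 against -2.35 to -2.34 (0.901) and MRTFA at -0.47 against -0.80 to -0.76 (0.877).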

How the results depend on the processing

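Of 990 values of members under the alternatives, 799 kept their direction and their side of the threshold, 90 fell short of it, 83 newly passed it and 18 changed sign. For knockdown against control, 2 members passed against shNontarget alone (341 genes) in place of 5 (2646 genes), 7 against shControl alone (6840 genes), and leaving out 1 array gave 2 to 7 (1245 to 4722 genes). With shBEX2-1, 7 passed against shControl alone (8919 genes) and 0 against shNontarget alone (0 genes), and with shBEX2-2, 9 (9016 genes) and 1 (64 genes). Leaving out 1 array gave 0 to 10 for shBEX2-1 (up to 10821 genes), 0 to 10 for shBEX2-2 (up to 11151), 0 to 6 between the control vectors (up to 9462), 0 to 6 between the hairpins (up to 3016) and 0 to 10 in the F test (up to 14779). The highest of these counts came without a shNontarget array, whose gap then leaves the shared spread. With the replicate number as a block, the F test called 1 member in place of 3, and 722 genes in place of 1384. The block ended the calls of FOS and DUSP4 in the F test, of MYC with shBEX2-1 and of EGR1 with shBEX2-2, and changed no other call of a member.

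Signs changed as follows. Against shControl alone, the difference between the arms was 0.11 for FOS, 0.15 for JUN and 0.33 for DUSP1, and with shBEX2-2 it was 0.28 for FOS and 0.68 for DUSP1 (limma adjusted p = 0.000726). Against shNontarget alone, JUN had -0.014 with shBEX2-2. Leaving out 1 array, JUN ranged from -0.14 to 0.14 and DUSP1 from -0.61 to 0.11 between the arms, and DUSP1 from -0.39 to 0.35 with shBEX2-2 (0.35 without shNontarget 2, limma adjusted p = 0.00900). Between the hairpins, FOSL1 then ranged from -0.026 to 0.12 and IER3 from -0.038 to 0.067, and IER3 had -0.067 with quantile normalization, -0.039 with normexp and -0.025 with the mean of probes. Between the control vectors, MYC had -0.030 with quantile normalization. MAPK8 had -0.0068 with the mean of probes. The cause of these changes was not tested. The methods' t-test called 2175 genes and 5 members after adjustment, IER3 and not FOSL1 among them, and 5423 genes and 7 members at their threshold. All member probes were well above background on every array and BEX2 on 6 of 8, and normexp moved JUNB between the arms to -1.18 and FOS to -2.07.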
